A study of Mus musculus with 6 samples.

Results

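Lhx6, Dlx1, Dlx2, Dlx5, Nkx2-1, Emx1, Fezf2 and Bcl11b are transcription factors best known from the developing forebrain, and they were followed here in RNA that the submitters describe as newborn mouse cerebellum. They were read with 12 of the 55681 non-control probes of an Agilent one-colour expression array, namely every probe whose gene name is 1 of these 8 symbols among 34797 distinct names. The 8 genes were chosen from regional biology after a dose difference at 1 Lhx6 probe had been seen in these same arrays, so their dose differences are given as a description. The question was whether forebrain transcripts were present in the pools and whether they differed with the maternal diet.

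Each of the 6 arrays held RNA pooled from 3 pups of the C57BL/6J strain at postnatal day 1, each pup from another dam. The dams ate an amino acid based AIN-93G diet with folic acid at 2 mg/kg (control) or 20 mg/kg, starting before mating. There was 1 female and 1 male pool at 2 mg and there were 2 female and 2 male pools at 20 mg, the 20 mg extraction having been repeated for both sexes from another batch (taken here to be replicate 2). A pool averages its pups, so the spread between pools is all the error these data hold. The sample titles name cerebellum, whereas the tissue field of every sample reads whole brain, and the labels do not say how the tissue was cut. The female 2 mg, the first female 20 mg and the male 2 mg pools shared slide 1, the second female and the first male 20 mg pools slide 2, and the second male 20 mg pool had slide 3 to itself. No slide held male pools of both doses, so slide and dose cannot be told apart in males. The array of the second female 20 mg pool was dim. Only 23.3% of all its probes were well above background (the scanner software's flag for a spot clearly brighter than its surroundings), against 51.1% to 71.9% on the other 5 arrays, and for the members the values of the first female 20 mg pool are given apart from it. Of the 22 genes of the other lists called at 20 mg in females in what follows, 7 were past 2.5-fold the same way in the first female 20 mg pool alone (Dlx6, Dlx3, Six6, Fezf1, Ttr, Aqp1 and Kcne2), and the others passed only with the dim array.

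The forebrain forms from the front of the neural tube and the cerebellum from the hindbrain. Dlx1, Dlx2 and Dlx5 are homeodomain factors of the subpallium, the ventral part of the telencephalon where inhibitory neurons are born, and Dlx1 and Dlx2 lie next to each other in the genome. Nkx2-1 patterns the medial ganglionic eminence and the hypothalamus, and in the eminence it acts upstream of Lhx6, a LIM homeodomain factor of migrating cortical interneurons. Emx1, Fezf2 and Bcl11b (also called Ctip2) belong to the cortical side: Emx1 marks the dorsal telencephalon, Fezf2 specifies neurons that project below the cortex, and Bcl11b acts with Fezf2 in those neurons and also serves striatal neurons.

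Lhx6 and Dlx1 each had probes that disagreed, and the second stretch of each 60-base probe, from base 31 to base 60, is printed to show how those probes differ (5′ to 3′, from the deposited array design). Capitals mark an unbroken run of CA repeats. The Lhx6 probes lie on the minus strand of chromosome 2 in build mm9, at chr2:35937644-35937703, chr2:35937470-35937529 and chr2:35958379-35958438. They start at bases 3251 and 3425 of the same transcript record and at base 601 of another. The Dlx1 probes lie on the plus strand, at chr2:71371499-71371558 and chr2:71367411-71367470, and start at bases 2240 and 288 of different transcript records.
Lhx6 3251: aACACACACACACACACACACACACACACA
Lhx6 3425: gagtagaagtgccggcacttaaacccagaa
Lhx6 601: aggagatctactgcaagatggactacttca
Dlx1 2240: ggccaagaagaaaaatcatactttgggcag
Dlx1 288: gactctggagcggcgctccgcaccggacta

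The Lhx6 probe at base 3251 ended in a CA run of 29 bases, and neither of the other Lhx6 probes held such a run. The probe at base 3425 began 114 bases past its end on the same transcript end. Levels are given throughout as quantile-normalized log2 intensities, in which the 6 arrays are forced to 1 common distribution and the lowest possible level is the floor of 3.32.

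Every pool had a member probe well above background, and the levels differed widely between pools. At least 1 probe of all 8 genes was well above background in the female 2 mg pool and in the first female 20 mg pool. The male 2 mg and the first male 20 mg pool had 6 of the 8 genes, the second male 20 mg pool had 4, and the dim array had 1, which was Lhx6. In the male 2 mg pool, the second male 20 mg pool and on the dim array, Lhx6 counted only through the probe with the CA run. Counted as probes, 10 of 12 were well above background in each of the female 2 mg and first female 20 mg pools, 7 in the male 2 mg pool, 8 and 5 in the male 20 mg pools, and 1 on the dim array. As a share this was 83.3% in each of these female pools, against 63.6% and 71.9% of all probes on the same arrays. In the male 2 mg pool it was 58.3% against 65.8% of all probes, in the male 20 mg pools 66.7% against 51.1% and 41.7% against 55.7%, and on the dim array 8.33% against 23.3%. The members were thus below the share of their array in the male 2 mg pool, in the second male 20 mg pool and on the dim array. The probes Lhx6 601 and Dlx1 288 were well above background on no array.

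**Figure D1:**
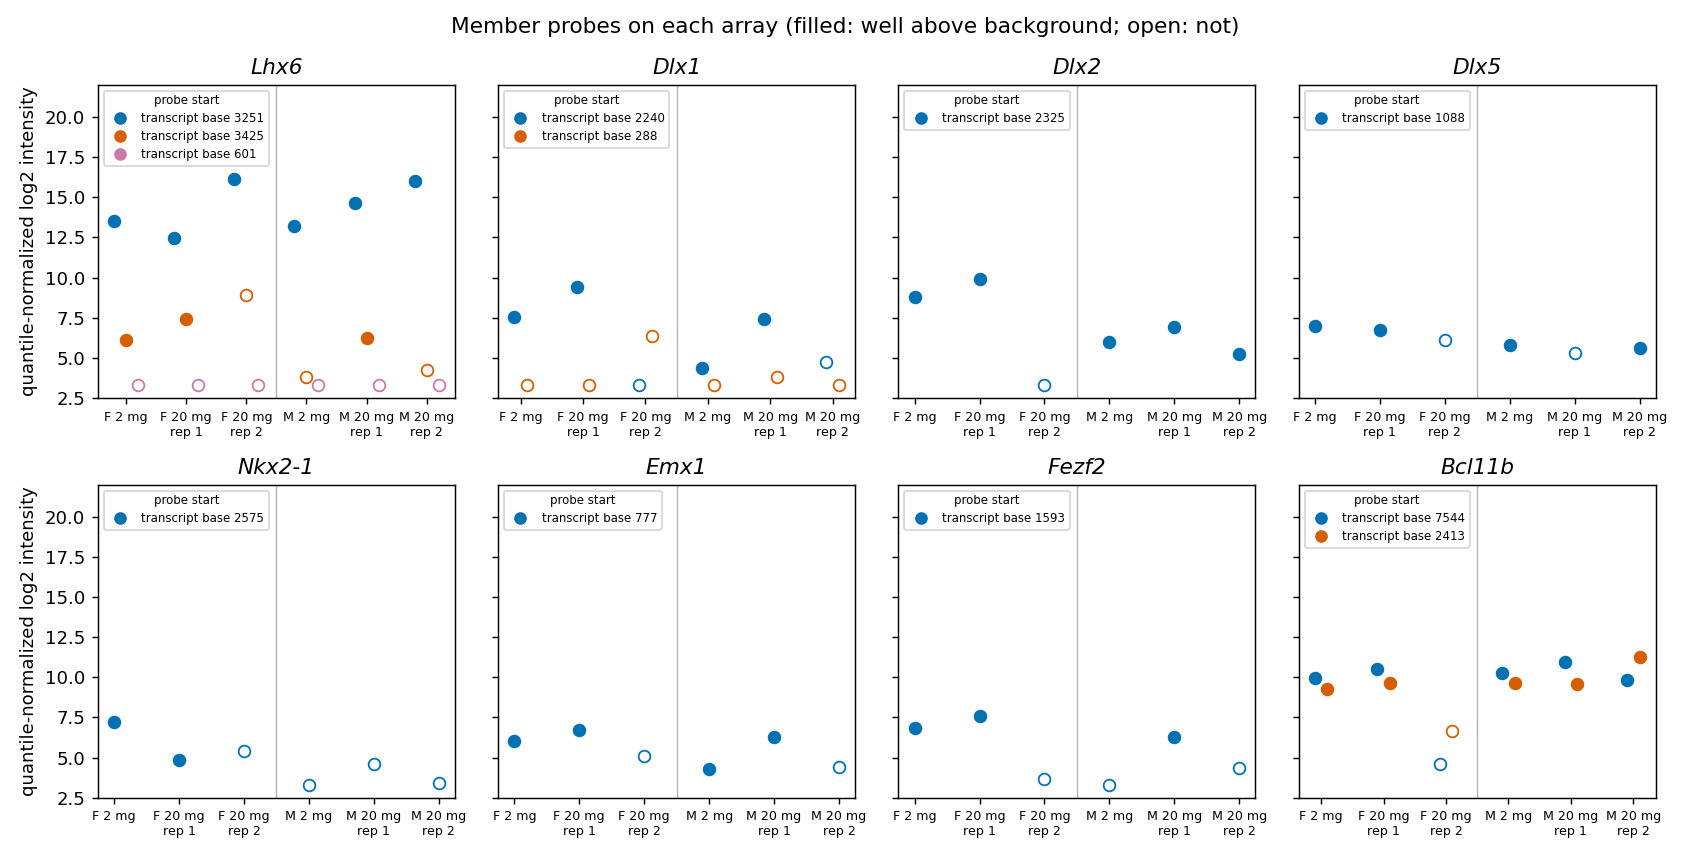
Quantile-normalized log2 intensity (vertical axis) of the 12 probes on each of the 6 arrays, 1 panel per gene, with females (F) left and males (M) right of the line. Filled points were well above background and open points were not. Colours separate probes of 1 gene by their start in the transcript record each was designed to. Bcl11b was filled on 5 arrays, Fezf2 on 3, and the Lhx6 601 probe on none.

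Dlx1, a subpallial factor needed for interneuron development, varied widely among pools. At the Dlx1 2240 probe the levels were 7.52 in the female 2 mg pool, 9.43 and 3.32 in the female 20 mg pools, 4.40 in the male 2 mg pool, and 7.40 and 4.73 in the male 20 mg pools. The second pool of each sex at 20 mg was not well above background. Before normalization the processed signal ran from 4.34 intensity units on the dim array to 2899 units in the first female 20 mg pool. In females the 20 mg pools lay on both sides of the 2 mg pool, the lower being the dim array at the floor. In males both 20 mg pools lay above the 2 mg pool, 1 of them close to it. The Dlx1 288 probe, of which 73.3% of bases are G or C, stayed at 3.32 to 3.82 on 5 arrays and read 6.37 on the dim array, never well above background.

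Dlx2, its neighbour and partner in the same cells, followed a like order in the 3 pools of slide 1. Its levels (chr2:71381553-71381612) were 8.79 in the female 2 mg pool, 9.91 and 3.32 in the female 20 mg pools, 5.99 in the male 2 mg pool, and 6.92 and 5.25 in the male 20 mg pools. Every array but the dim one measured it above background, and the male 20 mg pools lay on either side of the male 2 mg pool. Dlx5, a later factor of the same cascade, was less variable: 7.01 in the female 2 mg pool, 6.73 and 6.09 in the female 20 mg pools, 5.80 in the male 2 mg pool, and 5.33 and 5.60 in the male 20 mg pools (chr6:6828063-6828122). It was highest in the female 2 mg pool, and the 20 mg pools of both sexes were slightly below their 2 mg pool. In the first male 20 mg pool and on the dim array it was not well above background.

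Nkx2-1 was high in 1 pool only. Its probe (chr12:57633119-57633178, printed as 10 spots on each array) read 7.22 in the female 2 mg pool, 4.87 and 5.42 in the female 20 mg pools, 3.32 in the male 2 mg pool, and 4.62 and 3.44 in the male 20 mg pools. Only the female 2 mg and the first female 20 mg pool were well above background. Both female 20 mg pools lay below the female 2 mg pool and both male 20 mg pools lay above the male 2 mg pool, although no male value was well above background.

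Lhx6 gave 3 different answers with 3 probes. The Lhx6 3251 probe, with the CA run, was well above background on all 6 arrays, at 13.52 in the female 2 mg pool, 12.44 and 16.12 in the female 20 mg pools, 13.21 in the male 2 mg pool, and 14.65 and 16.04 in the male 20 mg pools. After normalization it was highest on the dim array, on which it was the 1 member probe well above background. Before normalization it was lowest there, with a processed signal of 8648 intensity units against 22673 to 33700 elsewhere. The nearby Lhx6 3425 probe read 6.14, 7.42 and 8.92 in the same order of female pools and 3.83, 6.27 and 4.22 in the male pools. It was well above background in the female 2 mg, first female 20 mg and first male 20 mg pools, the same 3 pools in which Fezf2 was. The Lhx6 601 probe, which lies upstream on the gene's strand and was designed to another transcript record, stood at the floor of 3.32 on every array. Its processed signal was 3.77 to 6.63 intensity units.

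The pattern of the Lhx6 3251 probe was shared by the other probes that hold the same repeat. The letters searched in each probe as printed were CACACACACACACACACACA, which is 10 copies of CA, or the same repeat begun at A; 24 probes held it, 0.0431% of all. All 24 were well above background on all 6 arrays. The 23 that are not Lhx6 had median levels of 14.76 in the female 2 mg pool, 13.99 and 16.69 in the female 20 mg pools, 14.52 in the male 2 mg pool, and 15.34 and 16.61 in the male 20 mg pools. Ranked by level, the 6 arrays came in the same order as at the Lhx6 3251 probe. Before normalization the Lhx6 3251 probe had a processed signal of 23538 intensity units in the male 2 mg pool and 26693 and 33700 in the male 20 mg pools, while the median of the other 23 was 59016 units at 2 mg and 39625 and 51374 at 20 mg. On the opposite strand of the repeat, 52 probes held 10 copies of TG, 0.0934% of all, and these too were well above background on all 6 arrays. Their median difference of the first female 20 mg pool from the female 2 mg pool was 0.30, against -0.92 at the 23 CA probes.

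**Figure D2:**
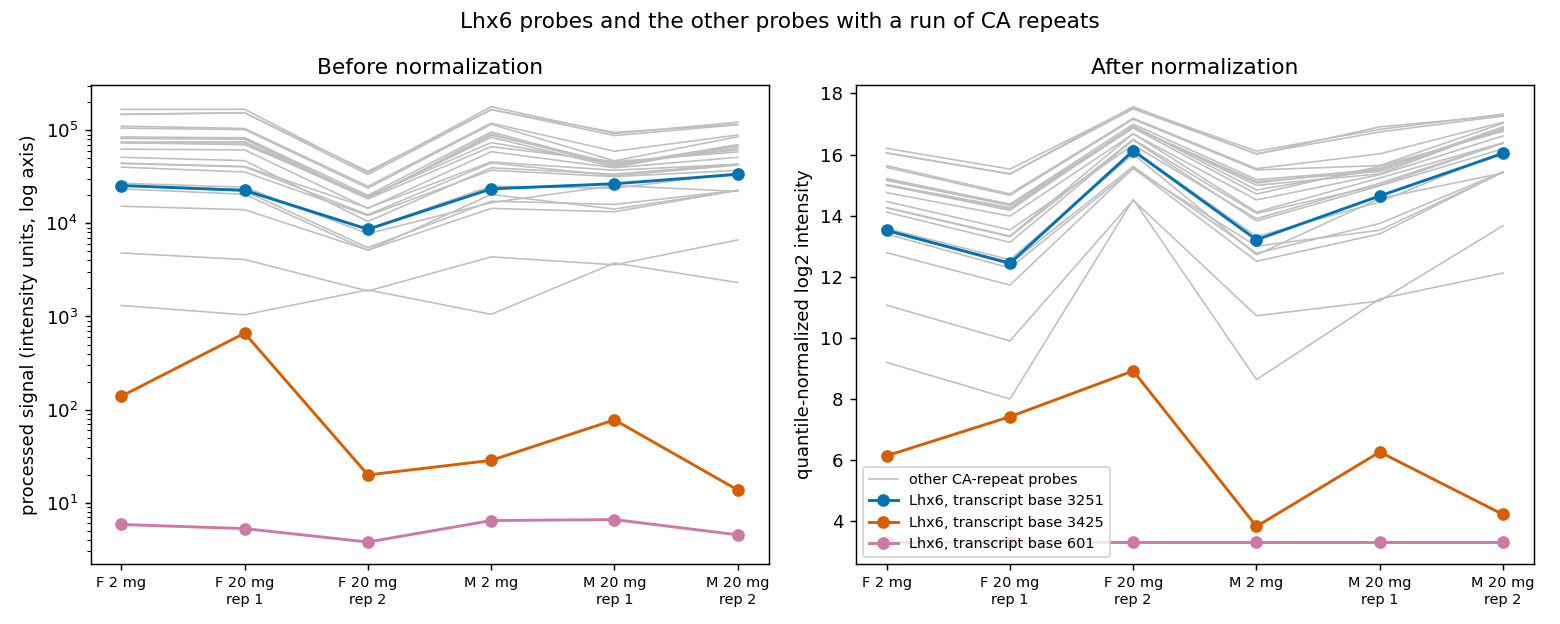
The 3 Lhx6 probes (coloured) and the other 23 probes with 10 copies of CA (grey) on the 6 arrays, as processed signal on a log axis (left) and as quantile-normalized log2 intensity (right). The normalized Lhx6 3251 line runs with the grey lines, lowest at 12.44 in the first female 20 mg pool and highest at 16.12 on the dim array, whereas the Lhx6 601 line stays at 3.32.

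By likeness over the 6 arrays, the genes nearest to Lhx6 at its brightest probe were Krt222 (Pearson r = 0.998), Tacr2 (r = 0.998) and Oprm1 (r = 0.998), and the probe of each holds the CA repeat. Of 37206 other probes well above background on at least 2 arrays, 192 had r of 0.95 or more, and all of the other 23 CA-repeat probes were among them, with r of 0.953 at the lowest. All 6 points share the same arrays and normalization, so these values describe the arrays and no p is attached.

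Fezf2 and Emx1, of the cortical side, had the order of Dlx1 in the 3 pools of slide 1. Fezf2 (chr14:13175057-13175116) read 6.84 in the female 2 mg pool, 7.59 and 3.66 in the female 20 mg pools, 3.32 in the male 2 mg pool, and 6.29 and 4.37 in the male 20 mg pools. The female 2 mg and the first 20 mg pool of each sex were well above background and the other 3 were not. The symbols nearest to Fezf2 over the 6 arrays were Tg (r = 0.985), St3gal1 (r = 0.977) and Dlx1 (r = 0.969), and only 7 of 37206 probes reached r of 0.95. Emx1 (chr6:85154062-85154121) read 6.06, 6.73 and 5.07 in the female pools in the same order and 4.32, 6.28 and 4.40 in the male pools. It was above background everywhere but on the dim array and in the second male 20 mg pool.

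Bcl11b was measured in every pool outside the dim array. Its probe at base 7544 (chr12:109148932-109148991) read 9.95, 10.50 and 4.63 in the female pools and 10.24, 10.96 and 9.81 in the male pools. Its probe at base 2413 of another transcript record (chr12:109153847-109153906) read 9.27, 9.66 and 6.67 in the female pools and 9.63, 9.56 and 11.28 in the male pools. Both were well above background on every array except the dim one, and they disagreed on the second male 20 mg pool, which was lowest of the male pools at base 7544 and highest at base 2413.

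On the study's fold rule the members did not move together with dose. That rule keeps probes whose variance over the arrays exceeds the median variance by a chi-square test at p of 0.05. Of these it calls those whose mean log2 level differs by 2.5-fold or more, with no replicate at 2 mg. In males 4 member probes were higher at 20 mg and 0 lower, where the rule called 1.42% of all probes higher and 2.17% lower. They were Lhx6 3251 (2.13 on the log2 scale, from 13.21 to 15.34 ± 0.98, SD of n = 2), Fezf2 (2.01, from 3.32 to 5.33 ± 1.36), Dlx1 2240 (1.67, from 4.40 to 6.07 ± 1.89) and Lhx6 3425 (1.41, from 3.83 to 5.25 ± 1.45). Only Lhx6 3251 was past 2.5-fold on both male 20 mg arrays, at 1.43 and 2.83. The other 3 rested on the first pool, in which the differences were 2.97 for Fezf2, 3.01 for Dlx1 2240 and 2.44 for Lhx6 3425, against 1.05, 0.33 and 0.39 in the second. With the background corrected by normexp, or left uncorrected, Lhx6 3251 was the 1 call left. Without the first male 20 mg pool, the male difference was 2.92 for Lhx6 3251. It was then under 2.5-fold for Fezf2 (1.22), Lhx6 3425 (0.42) and Dlx1 2240 (0.30). Bcl11b 2413, which was not called with both pools, was then at 1.66.

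The smallest of the 4 called differences was that of Lhx6 3425 at 1.41. Emx1, at 1.02, was under 2.5-fold and also failed the variance filter. Fezf2 and Lhx6 3425 were not well above background in the male 2 mg pool. Set against the lowest level well above background in that pool, the male 20 mg mean was 2.70-fold higher for Fezf2. For Lhx6 3425 it was 2.55-fold higher. These are not lower bounds, since each was measured above background on only 1 of the 2 arrays at 20 mg. Among the 23 other CA-repeat probes the male difference at 20 mg had a median of 1.47 on the log2 scale and ran from 0.84 to 3.06, all of them positive, and 14 were at 2.5-fold or more. Among the 52 TG-repeat probes its median was 0.32, and 0 were higher by 2.5-fold or more. The median over all probes was 0.00. Whether the repeat has a part in the Lhx6 3251 difference was not tested.

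In females 2 member probes were called higher at 20 mg and 3 lower, where the rule called 8.65% of all probes higher and 10.3% lower. The 2 higher were Lhx6 3425 (2.03) and Dlx1 288 (1.52), and the 3 lower were Bcl11b 7544 (-2.38), Dlx2 (-2.18) and Nkx2-1 (-2.07). Nkx2-1 was the single probe past 2.5-fold on both female 20 mg arrays, at -2.35 and -1.79 on the log2 scale. For Dlx2 and Bcl11b 7544 the first female 20 mg pool was above the 2 mg pool, by 1.12 and 0.55, so the calls came from the dim array, where the differences were -5.47 and -5.32. The Dlx1 288 call came from the dim array too, with a difference of 0.00 in the first pool and 3.05 in the second, neither well above background. Lhx6 3425 was 1.28 above the 2 mg pool in the first pool, just under 2.5-fold, and 2.78 above it on the dim array, where it was not well above background. Within slide 1, where the first female 20 mg pool can be set against the female 2 mg pool without the dim array, 1 member probe was higher (Dlx1 2240, 1.90) and 1 lower (Nkx2-1, -2.35), where the rule called 0.753% of all probes higher and 1.61% lower. With a shift to a common 75th percentile in place of quantile normalization, 2 member probes were higher in females and 0 lower. The loss of lower calls was array-wide, since 1723 probes were then called higher and 354 lower, against 4815 and 5737, and the median difference over all probes moved from 0.00 to 1.04. The Fezf2 and Dlx1 2240 differences turned from -1.22 to 0.40 and from -1.15 to 0.63, both still below that median.

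**Figure D3:**
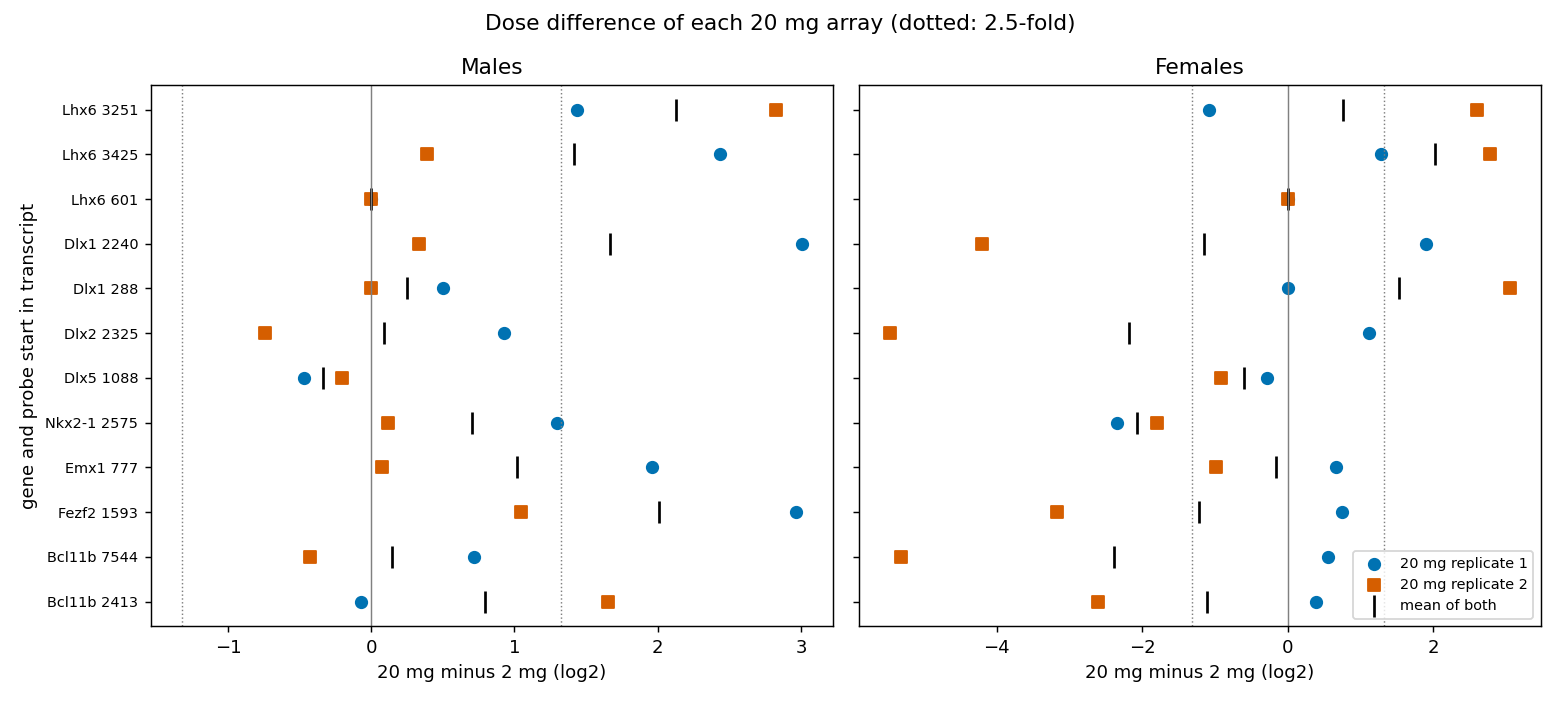
Difference of each 20 mg array from the 2 mg array of its sex (log2, horizontal axis) for the 12 probes, with the mean of both as a bar and dotted lines at 2.5-fold. The panels have separate horizontal scales. In males the first-pool point lies right of the second for Dlx1 2240, Fezf2, Emx1 and Lhx6 3425, and in females the second pool, on the dim array, lies at -5.47 for Dlx2.

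Across all probes, limma's moderated test with Benjamini-Hochberg adjustment called 0 of 37207 probes for dose in males, in females, over both sexes, or for the sex difference of the dose effect (0% in each). Unadjusted p was under 0.05 for 74, 161, 144 and 51 probes. Of the 12 member probes, 10 entered this test, and all 10 had an adjusted p of 1 in males and in females. A fit with the replicate number as a block, which stands for the extraction batch, has fewer residual degrees of freedom than the main fit. It takes the shift between replicates as equal in both sexes, although deviations of same-numbered pools correlated at only r = 0.087. With that block limma called 13 probes over both sexes, 10 in females, 1 in males and 0 for the sex difference, none of them a member. Without the first female 20 mg pool, which leaves the dim array alone at 20 mg, it called 96 probes in females, again with 0 members. For Lhx6 3251 the male estimate was 2.13 with a standard error of 1.16, and for Fezf2 2.01 with a standard error of 1.96. For Dlx1 2240 it was 1.67 with a standard error of 2.45. With 2 residual degrees of freedom and a prior SD of 1.32, only very large differences could have passed, so these values do not show that dose made no difference.

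The 3 pools of slide 1, which can be compared without a change of slide, differed from one another. Of the 12 member probes, 5 of as many genes (Dlx1 2240, Dlx2, Emx1, Fezf2 and Lhx6 3425), ran from highest in the first female 20 mg pool through the female 2 mg pool to lowest in the male 2 mg pool, an order that 11.9% of all probes had. The order was picked out after the values were seen. From the male 2 mg to the first female 20 mg pool the log2 difference was 5.03 for Dlx1 2240, 3.92 for Dlx2 and 2.41 for Emx1. Fezf2 and Lhx6 3425 were not well above background in the male 2 mg pool, so only bounds can be given: Fezf2 was at least 12.9-fold higher in the female pool, and Lhx6 3425 was at least 11.5-fold higher. Under the fold rule 5 member probes were higher in that female pool than in the male 2 mg pool (Dlx1, Dlx2, Fezf2, Lhx6 3425 and Nkx2-1, the last at least 1.96-fold higher) and 0 lower, where 0.456% of all probes were higher and 1.31% lower. Sex and dose both differ in that pair, and with 1 pool on each side it has no replicate check. In bulk RNA, fewer cells of a type and less RNA per cell cannot be told apart.

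Other transcription factors of the telencephalon, from lists drawn up for cortex and subpallium, were compared over the same 3 pools. Of 12 pallial factors, 7 were highest of the 3 slide 1 pools in the first female 20 mg pool and 3 in the female 2 mg pool, and of 15 subpallial factors 7 and 8 were, so that no subpallial factor was highest in the male 2 mg pool. Over all probes 33.1% were highest in the first female 20 mg pool, 27.3% in the female 2 mg pool and 19.1% in the male 2 mg pool, with ties counted for none. The median rise from the male 2 mg to the first female 20 mg pool was 0.10 for pallial and 0.37 for subpallial factors. It was 1.98 for the brightest probes of the 8 members and 0.00 over all probes. Tbr1, a factor of early cortical projection neurons, read 9.90 in the female 2 mg pool, 11.47 and 8.71 in the female 20 mg pools, 8.12 in the male 2 mg pool, and 9.82 and 8.20 in the male 20 mg pools. Sp8, a zinc finger factor of olfactory bulb interneuron precursors, read 8.37, 10.67 and 3.95 in the female and 7.42, 7.43 and 5.42 in the male pools. Tbr1 and Sp8 were named after their values were seen, and other genes of their lists went the other way. From the male 2 mg to the first female 20 mg pool the difference was -0.39 for Cux2 and -0.17 for Emx2, both pallial. It was -1.26 for Six3 and -0.40 for Foxp1, both subpallial. Without the variance filter, 2 of the 12 pallial and 5 of the 15 subpallial factors were 2.5-fold or more higher in that female pool, and 0 of either were lower. In the male contrast no pallial and no subpallial factor was called in either direction. The medians were -0.21 and -0.16 on the log2 scale, against 0.86 for the brightest probes of the 8 members and 0.00 over all probes. In females 1 pallial factor was higher and 0 lower, and 1 subpallial factor was higher and 2 lower.

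Several hypothalamic factors were highest in the same pool as Nkx2-1. Of 12 diencephalic and hypothalamic factors, 9 were highest of the slide 1 pools in the female 2 mg pool, 8 of them well above background, where 27.3% of all probes were. Of all 6 arrays 5 were highest there (Rax among them, not well above background), where 5.58% of all probes were. Also highest of the 6 arrays in the female 2 mg pool were 4 of 7 hindbrain genes and 5 of 15 subpallial factors. Six6, a factor of the ventral forebrain and eye, read 6.56 in that pool and 3.32 to 4.42 on the other 5 arrays. Sim1, needed for the paraventricular nucleus, read 6.38 there and 3.32 to 4.34 elsewhere, and Fezf1, a hypothalamic relative of Fezf2, read 6.97 against 3.32 to 5.16. These 3 were the genes of that list past 2.5-fold in 1 direction on both female 20 mg arrays, and the rule called 3 of the 12 lower in females (Six6, Fezf1 and, on the dim array, Hmx3), 0 higher, with a list median of -0.43. In males it called 1 higher, Vax1, and 0 lower. Otp and Rax were well above background on no array.

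Relatives of the members were mixed. Of 8 LIM homeobox genes the male contrast called Lhx6 alone, higher, and the female contrast 1, Lhx1, lower, on the dim array. Of 6 Dlx genes it called Dlx1 higher in males, and in females Dlx6 and Dlx4 higher and Dlx2 and Dlx3 lower. Dlx6 was 1.59 above the 2 mg pool in the first female 20 mg pool and well above background there, whereas the Dlx4 difference was -0.39 in that pool and its call came from the dim array, where it was not well above background. Of 12 interneuron genes that act beside or after Nkx2-1 and Lhx6, 0 were called in males and 2 lower in females (Cxcr4 and Nos1), both on the dim array. Sst, the somatostatin peptide of Lhx6-dependent cortical interneurons and of other brain regions, read 13.65, 12.77 and 12.52 in the female and 13.63, 14.32 and 13.77 in the male pools.

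**Figure D4:**
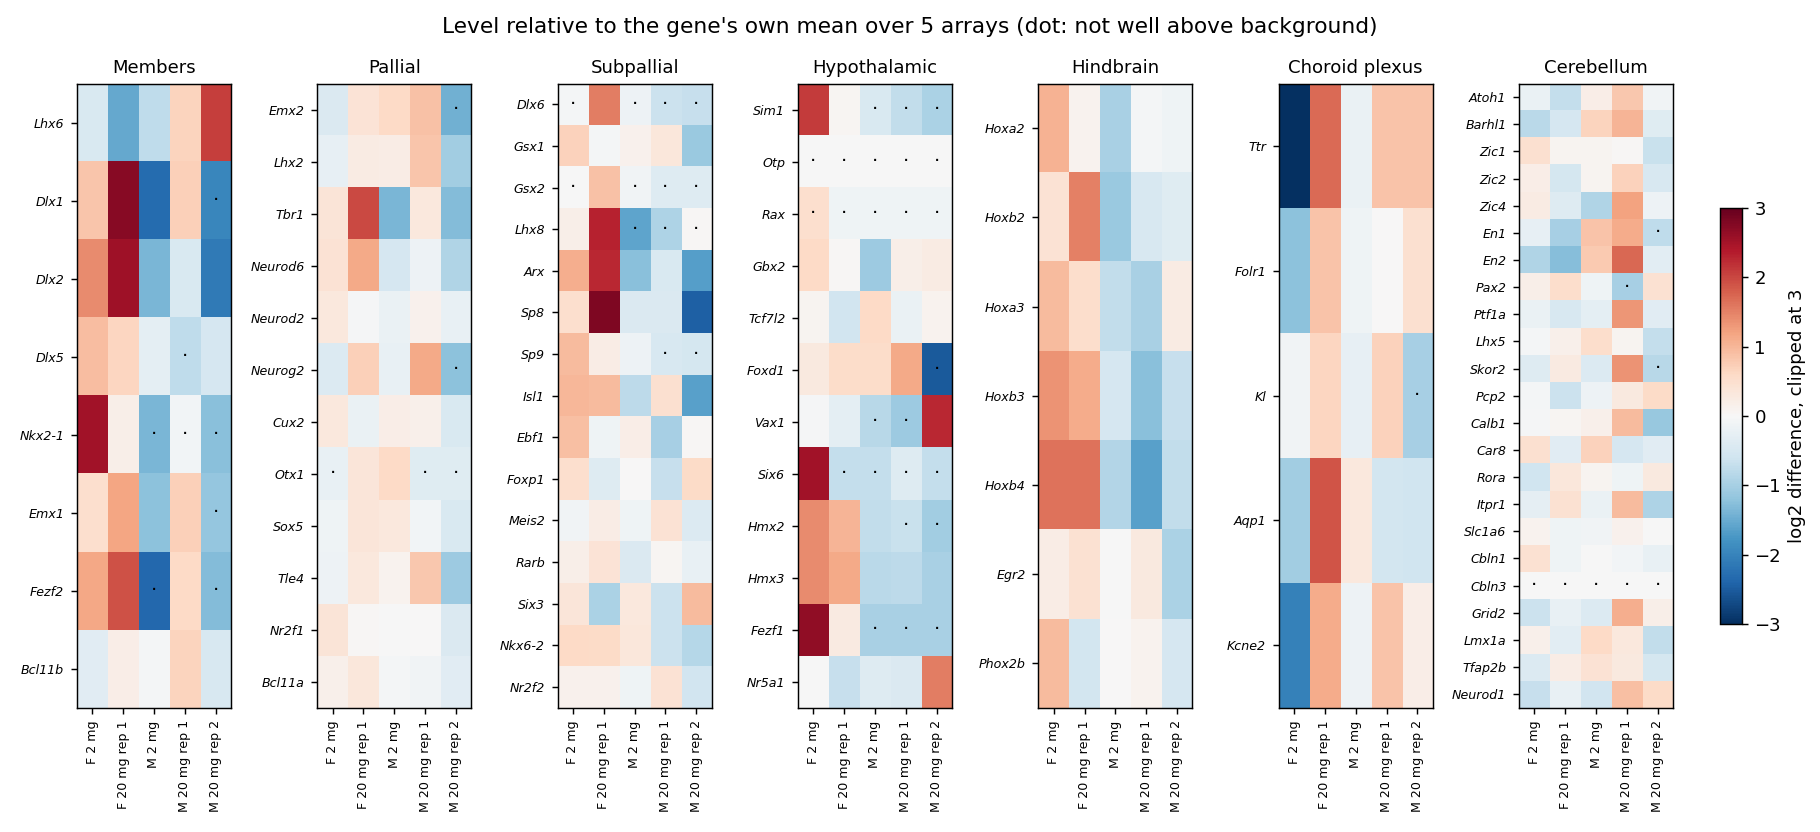
Level of each gene's brightest probe relative to that gene's own mean over the 5 arrays other than the dim one (colour, log2, clipped at 3), for the members and 6 regional lists. Dots mark values not well above background. Dlx1, Fezf2 and Tbr1 are red in the first female 20 mg pool and blue in the male 2 mg pool, Nkx2-1, Six6, Sim1 and Fezf1 are red in the female 2 mg pool, and Ttr is darkest blue there.

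Markers of the labelled tissue were present. Of 23 cerebellar genes 20 to 22 were well above background on the 5 brighter arrays and 14 on the dim one, and Cbln3, a gene of maturing granule cells, was at the floor on nearly every array. Zic1, a granule lineage factor, read 14.04 to 15.47, Pcp2, a Purkinje cell gene, 11.25 to 12.46, and Calb1, a calcium-binding protein of Purkinje cells, 8.18 to 10.64. Atoh1, the factor of granule cell progenitors, read 6.70 to 8.86. En2, which marks the midbrain-hindbrain territory from which the cerebellum grows, read 10.58 in the female 2 mg pool, 10.20 and 10.09 in the female 20 mg pools, 12.26 in the male 2 mg pool, and 13.20 and 11.16 in the male 20 mg pools. The summed normalized signal of the 23 genes was 74911 to 96542 in female and 59057 to 98503 in male pools. The contrast called 0 of the 23 in males and 1 higher and 1 lower in females.

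Genes of other regions also moved between the pools in which the members differed. Of 7 hindbrain genes 6 were lowest of the slide 1 pools in the male 2 mg pool, as 19.8% of all probes were; Hoxb4, a positional gene of the caudal hindbrain, read 10.51 and 10.53 in the female pools of that slide and 8.01 in the male. The summed signal of the 7 was 8286 in the female 2 mg pool, 6528 and 2253 at 20 mg, 2806 in the male 2 mg pool, and 2757 and 3308 at 20 mg. The choroid plexus genes went the other way from Nkx2-1: Ttr, the thyroid hormone carrier made by that epithelium, read 11.21 in the female 2 mg pool and 14.26 to 16.16 on the other 5 arrays, and 3 of the 5 choroid genes were called higher at 20 mg in females (Ttr 4.16, Kcne2 4.05 and Aqp1 2.52, list median 2.55), with 0 lower. Summed over the 5 genes the signal was 2800 in the female 2 mg pool, 75761 and 28776 in the female 20 mg pools, and 20657, 41778 and 41478 in the male pools. The part of regional makeup in the members' differences was not tested.

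The remaining lists gave few calls. Of 6 striatal neuron genes neither contrast called any. Of 6 cortical neuron genes 0 were called in males and 1 was lower in females (Camk2a, on the dim array). Without the variance filter, 4 of the 6 were 2.5-fold or more above the male 2 mg pool in the first female 20 mg pool. At their brightest probes 5 of the 8 members were too (Dlx1, Dlx2, Nkx2-1, Emx1 and Fezf2). So were 3 of 7 hindbrain, 5 of 15 subpallial, 2 of 5 choroid plexus and 2 of 12 pallial genes. Of 23 cerebellar genes 0 were higher and 2 lower by as much. The share of all probes was not counted without that filter. Of 5 midbrain genes 2 were lower in males, Foxa1 and Foxa2, which fell on the second male 20 mg array alone; in females Foxa2 was higher and Pitx3 lower. None of 6 meningeal and none of 5 red blood cell genes were called in either sex.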

How the data were processed

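The authors hybridised Cy3-labelled RNA of 6 pools to one-colour arrays and deposited the spot intensity values and flags of Agilent Feature Extraction 10.7.3.1, with probe positions in build mm9, and, from BRB-ArrayTools, a value table of quantile-normalized log2 levels per probe. Here the deposited processed signals were used: outlier-flagged spots were dropped, spots averaged per probe, log2 taken, quantile normalization run over the 6 arrays and a floor of 10 intensity units set, as the methods describe. Fold calls used 2.5-fold on mean log2 levels after the variance filter at p of 0.05 (15247 probes kept). The second test was limma 3.58.1 (R 4.3.3; Python 3.11.15 for tables) over 4 groups with a trend, on 37207 probes well above background on 2 or more arrays. A dim group's fold was set against the lowest signal well above background. No spot was saturated, and array number limits the precision. Scripts were tested on simulated data.

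The members and lists were chosen with earlier results of these data known. Named were the members with every probe, list genes whose brightest probe passed 2.5-fold in 1 direction on both 20 mg arrays of a sex (at most 3 per list and sex), 5 cerebellar markers (En2, Atoh1, Zic1, Pcp2 and Calb1), and the 3 symbols most like Lhx6 and Fezf2. Other list genes were named after their values were seen, and some genes of the lists are not reported here. The CA-repeat search was added after the data were seen. All 8 symbols were in the RefSeq gene table, whose coordinates (another build) were not used. The replicate numbers of the 20 mg pools were read as the extraction batch that the labels mention; deviations of same-numbered pools correlated at r = 0.087 over 37207 probes.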

Additional observations from a re-analysis of the deposited data

Results flagged for a closer look

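At Nkx2-1 the 2 sexes moved in opposite directions on every array: both male 20 mg pools were above the male 2 mg pool, with a mean difference of 0.70 on the log2 scale, and both female 20 mg pools were below the female 2 mg pool, with a mean difference of -2.07. The direction alone raised it. In limma's fit of the sex difference the Nkx2-1 estimate was -2.77 with a standard error of 2.13 and an adjusted p of 1, and all 3 male values and the second female 20 mg value were not well above background.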

How the results depend on the processing

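In males the count of member probes past 2.5-fold was 1 with normexp and 1 with no background correction, against 4. Leaving out 1 20 mg pool gave 2 to 5. In females it was 2 with the 75th percentile shift, 3 with normexp, 2 without background correction and 2 within slide 1, against 5, and 3 to 9 when 1 20 mg pool was left out, the 9 being without the first female pool. The Dlx2 difference in females turned to 1.12 within slide 1 and 1.10 without the second female pool, and that of Bcl11b 7544 to 0.55 and 0.54, since the dim array is then left out; without the first female pool they were -5.06 and -5.22. With the software's weaker flag (positive and significant), 4 member probes passed on the dim array, against 1, and 9 in the second male 20 mg pool, against 5.

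The limma counts for members were 0 under every alternative run, and the lowest adjusted p of a member was 0.15, for Bcl11b 7544 in females. A replicate block leaves fewer residual degrees of freedom. With it the calls over all probes were 13 over both sexes, 10 in females and 1 in males, with 0 members. Left out in turn, 20 mg pools gave up to 96 calls over all probes, in females without the first female pool. The slide as a random block could not be fitted. Small differences are out of reach with 1 array per 2 mg group.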
